A study of Mus musculus with 16 samples.

Results

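Microglia are the resident macrophages of the brain, and the 34 genes described here are genes by which these cells are commonly recognised in mouse brain tissue. They were listed by name, with earlier results of these data known, from the fractalkine receptor Cx3cr1 and the ADP receptor P2ry12 to the chains of complement C1q. All 34 were among the 55450 genes of the table, and all 34 were among the 19363 genes kept for testing, a gene being kept when 4 or more of the 16 libraries each had 10 or more counts of it. The libraries came from the striatum of male mice on the C57Bl/6 background aged 14 weeks, 1 library per mouse and 4 mice per group. R6/1 mice carry a transgene with exon 1 of mutant human huntingtin and are a model of Huntington's disease (HD), and wild-type (wt) mice were their littermates. Within each genotype, “good” and “poor” mice were those whose rotarod performance, feet clasping and body weight lay farthest on either side of the average, so “poor” R6/1 mice had the more severe phenotype. No mouse was treated, and the mice had been housed alone and tested in a behavioural battery beforehand. Each comparison asked whether microglial RNA in the striatum differed by genotype, or by performance within a genotype.

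Microglia extend fine processes that sense nucleotides, chemokines and lipids, clear debris and dying cells, and tag synapses with complement for removal. Their survival depends on the receptor Csf1r and its ligands, and their identity on transcription factors such as PU.1 (Spi1), Irf8 and Sall1. In brains under strain they may turn on phagocytic, interferon-driven or inflammatory gene programmes and lower the genes of the resting state, among them P2ry12, Cx3cr1 and Tmem119. The striatum is the region hit hardest in HD, where the medium spiny neurons are lost or lose their characteristic transcripts. The samples were pieces of whole tissue, so fewer microglia and less RNA of a gene per microglial cell cannot be told apart in any value below.

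Levels are given as CPM, the counts of a gene scaled to a common library total, after TMM factors that keep a few abundant genes from shifting the rest, and the totals ran from 16155356 to 24897354 counts. A single microglial gene had between 40 and 4689 counts in a library. Differences are log2 fold changes with their standard error (SE) from edgeR's quasi-likelihood test, and a gene is said to have fallen or risen where the Benjamini-Hochberg adjusted p over all 19363 genes was under 0.05. Running numbers in the column headers place wt “good” mice 1 and 4, wt “poor” mouse 1, R6/1 “poor” mouse 2 and every R6/1 “good” mouse in libraries 1 to 8, and the rest in libraries 9 to 16. R6/1 “good” mice and 3 of the 4 R6/1 “poor” mice therefore sat in different sets of libraries, which touches the comparison of those groups most.

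Every defining microglial gene was detected in all 16 striata. To compare levels between genes, CPM were divided by the length of each gene's exons in kilobases (kb), as mean and SD of the 8 wild-type mice. The lysosomal protease Ctss stood highest at 99.01 ± 13.4 CPM per kb, followed by C1qb at 77.6 ± 10.4 and C1qa at 74.1 ± 10.6 CPM per kb. The levels of C1qb and C1qa lay within 1 SD of each other, as did those of the next 3 genes, the adaptor Tyrobp (36.4 ± 5.36), Csf1r (35.9 ± 2.74) and C1qc (34.3 ± 3.57). P2ry12 (26.6 ± 1.49) and Cx3cr1 (21.5 ± 2.28 CPM per kb) came some way below. At the other end were the transcription factors Spi1 (1.56 ± 0.271) and Irf8 (1.35 ± 0.271), the UDP receptor P2ry6 (0.939 ± 0.156) and the leukocyte phosphatase Ptprc, also known as CD45 (0.397 ± 0.0533 CPM per kb). The length takes in every annotated exon of a gene, 18.3 kb for Ptprc. In CPM, Ptprc (mean 7.28) lay above Spi1 (4.19) and P2ry6 (2.71) in wild-type mice, so its place depends on the length used.

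Microglial genes were lower in the striatum of R6/1 mice, and by a modest amount. Between all 8 R6/1 and all 8 wild-type mice 27 of 34 fell and 0 rose (79.4%), when 17% of all tested genes fell and 17.2% rose. All 34 log2 fold changes were negative, from -0.49 to -0.03, with a median of -0.36, and the median over all tested genes was 0.02. In R6/1 “poor” mice against the 8 wild-type mice 26 of 34 fell and 0 rose (76.5%), and the share among all tested genes was 14.9% lower and 13.5% higher. Their median was -0.43, with all 34 values negative between -0.69 and -0.10. In R6/1 “good” mice against the same 8 wild-type mice 13 of 34 fell and 0 rose (38.2%, against 12.4% lower and 12.1% higher among all tested genes), with a median of -0.28 and 33 negative values. With libraries scaled by their totals alone, which moved the median of all tested genes to 0.11 over all R6/1 mice and to 0.10 in “good” mice, 23 of 34 fell over all R6/1 mice with 32 negative values (12.3% lower and 28.8% higher among all tested genes), and 7 fell in “good” mice with 31 negative values (9.29% lower and 22.8% higher). These comparisons share their control mice, so they are set side by side and not counted as separate evidence.

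By name, 12 genes fell in both R6/1 groups (Cx3cr1, P2ry12, P2ry13, Gpr34, Csf1r, Tmem119, Selplg, Cd33, C1qa, Laptm5, Aif1 and Hpgds). Another 14 fell in R6/1 “poor” mice and did not pass the test in R6/1 “good” mice (Siglech, Fcrls, Slc2a5, C1qb, C1qc, Trem2, Tyrobp, Fcer1g, Inpp5d, Cd53, Ly86, Irf8, Cd68 and Olfml3), and 1, Spi1, fell in R6/1 “good” mice and did not pass in “poor” ones. The remaining 7 passed in neither group (P2ry6, Itgam, Fcgr3, Ptprc, Sall1, Ctss and Lpcat2), though Itgam and Fcgr3 fell over all 8 R6/1 mice. Passing in 1 group and not in the other does not show that the groups differ, and the direct comparison is given further on.

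**Figure D1:**
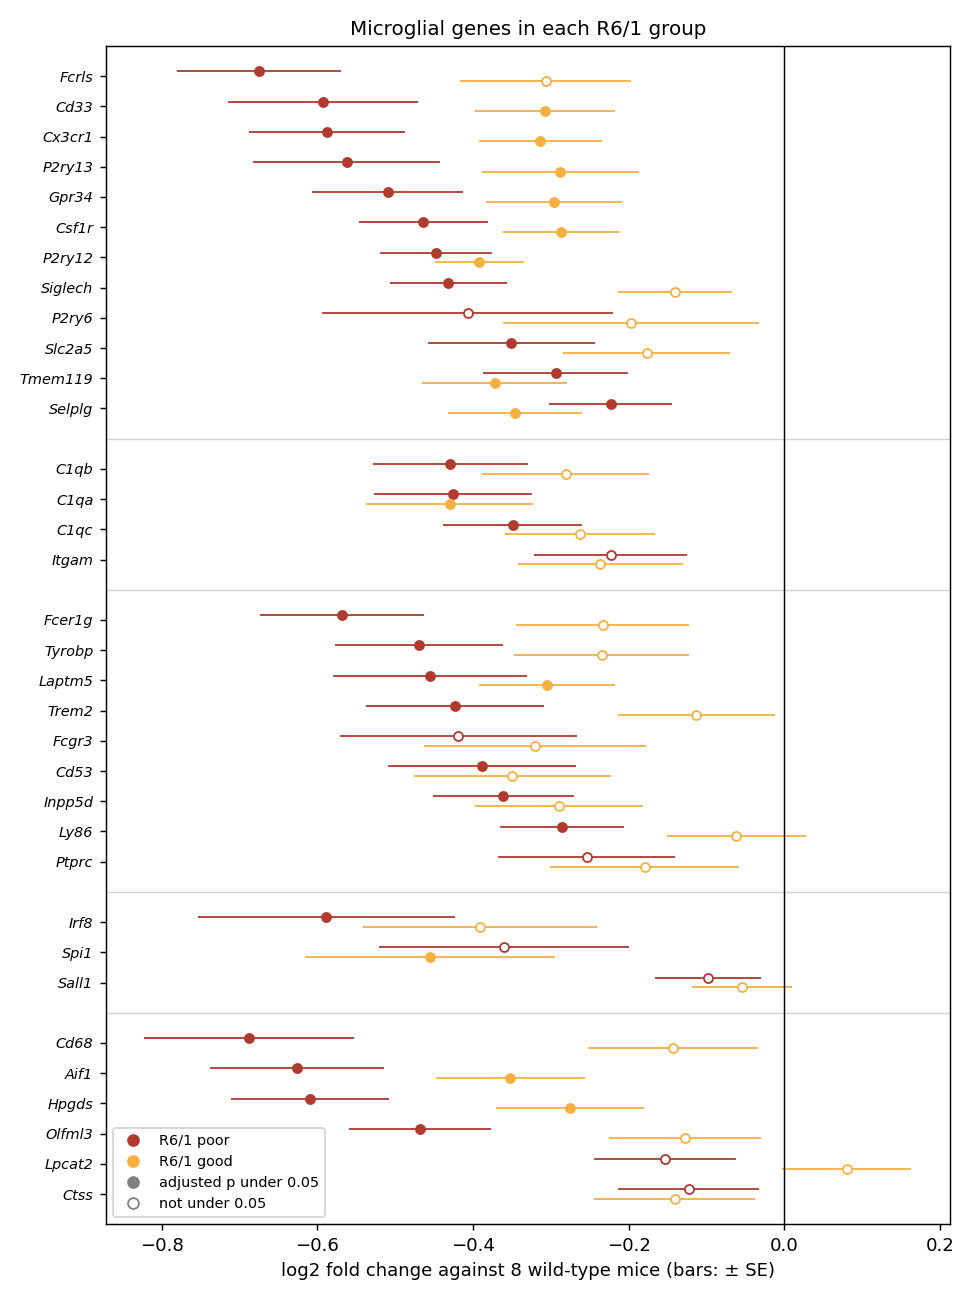
Log2 fold change of each of the 34 microglial genes in R6/1 “poor” (red) and R6/1 “good” mice (orange) against the 8 wild-type mice, with bars of ± SE; filled points have an adjusted p under 0.05, and grey lines part the groups by role. Every point except that of Lpcat2 in R6/1 “good” mice lies left of 0, and 26 “poor” and 13 “good” points are filled.

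Surface receptors and transporters formed the largest group, and 11 of its 12 genes fell over all R6/1 mice, 11 in “poor” and 8 in “good” mice. Among all tested genes 17%, 14.9% and 12.4% fell in these comparisons. P2ry12 is the receptor for extracellular ADP that draws microglial processes toward damage. It lay at 61.4 to 72.7 CPM (median 68.5) in the 8 wild-type mice, at 49.6, 54.9, 51.3 and 50.95 CPM in R6/1 “good” mice 1 to 4 and at 43.5, 53.2, 46.8 and 55.5 CPM in R6/1 “poor” mice 1 to 4. All 8 R6/1 mice lay below all 8 wild-type mice, and the R6/1 groups overlapped. The log2 fold change over all R6/1 mice was -0.42 (SE 0.05, adjusted p = 1.06e-05), the smallest adjusted p of the 34 genes, with -0.45 in “poor” and -0.39 in “good” mice.

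Cx3cr1 binds fractalkine, which neurons display on their surface. It lay at 87.5 to 120.3 CPM (median 93.8) in wild-type mice, at 71.8, 78.1, 76.1 and 84.97 CPM in R6/1 “good” and at 56.4, 80.4, 59.4 and 61.2 CPM in R6/1 “poor” mice. Again no R6/1 mouse reached the wild-type range, and R6/1 “poor” mouse 2 lay with the “good” mice while the other 3 “poor” mice were the lowest of all. The log2 fold change was -0.59 (SE 0.10, adjusted p = 0.000675) in “poor” and -0.31 (SE 0.08, adjusted p = 0.00927) in “good” mice.

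Csf1r, the receptor for Csf1 and Il34 on which microglial survival rests, lay at 191 to 242 CPM (median 208) in wild-type mice, at 148, 173, 165 and 194 CPM in R6/1 “good” and at 129, 176, 142 and 155 CPM in R6/1 “poor” mice. All 4 “poor” mice lay below the wild-type range, and “good” mouse 4 lay just inside it. The log2 fold change over all R6/1 mice was -0.37 (SE 0.07, adjusted p = 0.000704). Csf1r shares 873 exon bases with Hmgxb3 on the opposite strand, which had 13576 counts against 62149 for Csf1r over all libraries. How the counting treated strand is not given in the sources used here. Part of the Csf1r counts may belong to Hmgxb3.

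The other receptors that fell over all R6/1 mice were P2ry13, a second ADP receptor, at -0.42, the lysophosphatidylserine receptor Gpr34 at -0.40, the sialic acid-binding lectins Cd33 at -0.44 and Siglech at -0.28, the Fc receptor-like Fcrls at -0.48, Tmem119 at -0.33, the P-selectin ligand Selplg at -0.28 and the fructose transporter Slc2a5 at -0.26 on the log2 scale. Adjusted p ran from 0.000996 for Gpr34 to 0.0274 for Slc2a5. P2ry6, which triggers the uptake of debris when it senses UDP, had -0.30 (SE 0.14, adjusted p = 0.118) and did not pass. It was also the scarcest receptor, at 2.08 to 3.18 CPM (median 2.74) in wild-type mice. In Tmem119 and Selplg the log2 fold change was larger in “good” (-0.37 and -0.35) than in “poor” mice (-0.29 and -0.22), the reverse of the other receptors.

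**Figure D2:**
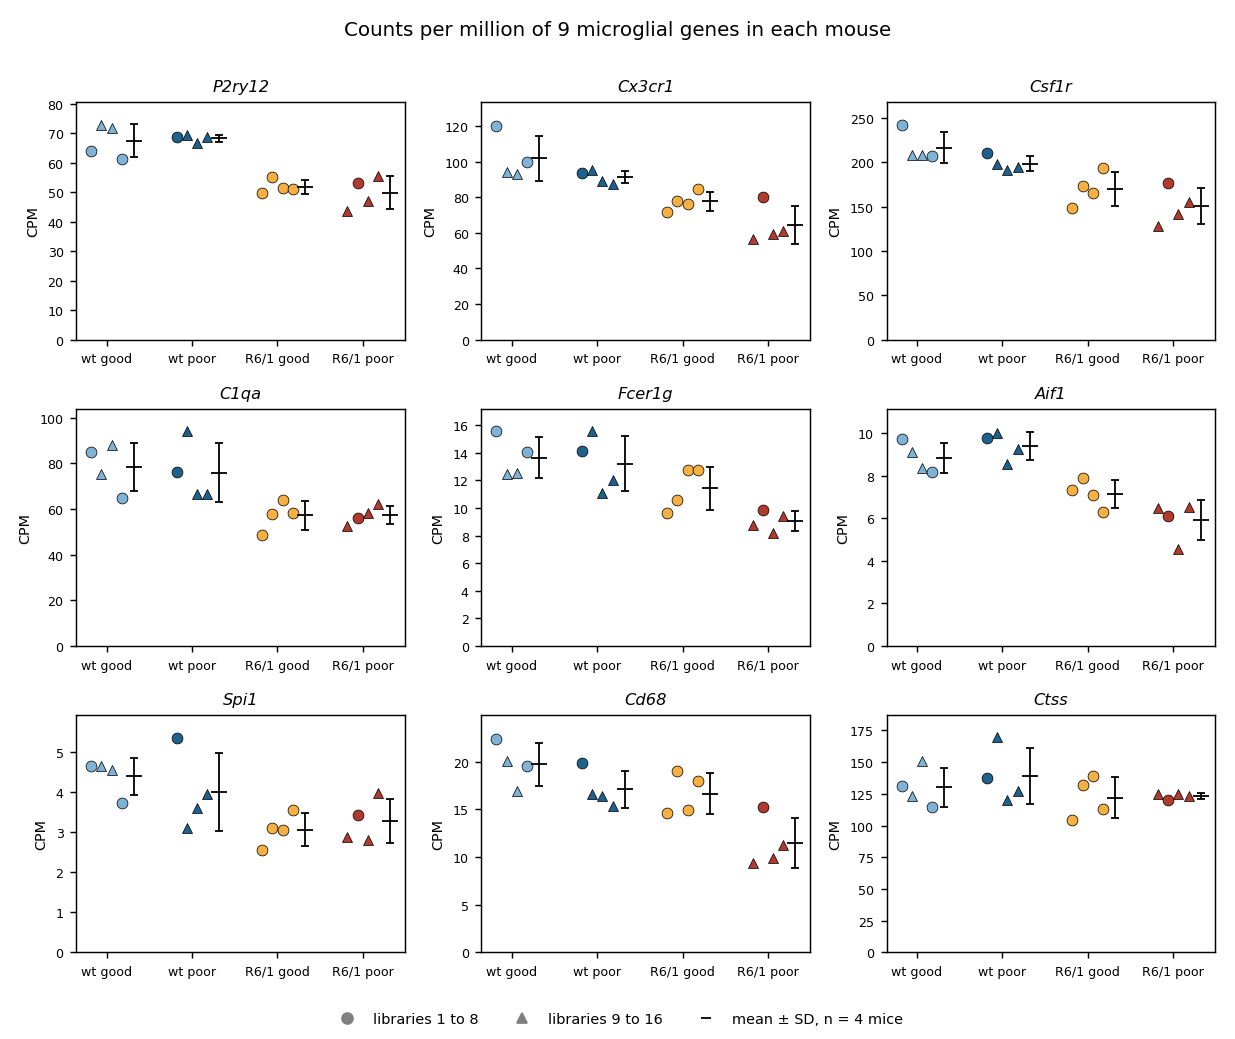
CPM of 9 microglial genes in each mouse, by group; circles mark libraries 1 to 8 and triangles the later set, 9 to 16, and the bar beside each group is mean ± SD of 4 mice. For P2ry12, Cx3cr1, C1qa and Aif1 all 8 R6/1 mice lie below all 8 wild-type mice, while for Ctss the 4 groups overlap.

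The chains of C1q, the complement protein that marks synapses and debris for uptake, fell together. C1qa lay at 64.8 to 94.1 CPM (median 75.7) in wild-type mice, at 48.8, 57.98, 63.8 and 58.4 CPM in R6/1 “good” and at 52.7, 56.2, 58.5 and 62.1 CPM in R6/1 “poor” mice. The 8 R6/1 mice lay below the 8 wild-type mice and the R6/1 groups overlapped fully, with -0.43 (SE 0.10, adjusted p = 0.00625) in “poor” and -0.43 (SE 0.11, adjusted p = 0.0089) in “good” mice. C1qb lay at 68.7 to 101 CPM (median 84.98) in wild-type mice, at 56.1, 72.8, 74.9 and 74.2 CPM in R6/1 “good” and at 56.3, 67.001, 61.6 and 65.9 CPM in R6/1 “poor” mice. Its log2 fold change over all R6/1 mice was -0.35 (SE 0.08, adjusted p = 0.00336).

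C1qc lay at 55.5 to 73.1 CPM (median 68.4) in wild-type mice, at 44.7, 56.4, 64.02 and 55.4 CPM in R6/1 “good” and at 48.2, 56.4, 46.4 and 56.7 CPM in R6/1 “poor” mice. Of the R6/1 mice, “good” mice 2 and 3 and “poor” mice 2 and 4 lay inside the wild-type range, whose lower edge was set by wt “poor” mice 3 and 4, and the log2 fold change over all R6/1 mice was -0.31 (SE 0.08, adjusted p = 0.00528). The alpha chain of complement receptor 3, Itgam, also known as CD11b, had a log2 fold change of -0.23 (SE 0.08, adjusted p = 0.0329) over all R6/1 mice, and its call was lost without R6/1 “good” mouse 1, R6/1 “poor” mouse 3 or 4, or wt “good” mouse 1. It passed in neither R6/1 group alone, at -0.22 and -0.24. Itgam shares 3450 exon bases with Gm49368 on the same strand, which had 2 counts against 2690 for Itgam over all libraries. How reads that fit both were counted is not given in the sources used here.

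Of the 9 adaptors and signalling genes 6 fell over all R6/1 mice, 7 in “poor” and 1 in “good” mice. Among all tested genes 17%, 14.9% and 12.4% fell, so the count in “good” mice lies near that share. Fcer1g, the gamma chain shared by activating Fc receptors, lay at 11.1 to 15.6 CPM (median 13.3) in wild-type mice, at 9.61, 10.6, 12.7 and 12.7 CPM in R6/1 “good” and at 8.76, 9.85, 8.19 and 9.41 CPM in R6/1 “poor” mice. All “poor” mice lay below all wild-type mice, whereas 2 “good” mice lay inside the wild-type range. The log2 fold change was -0.57 (SE 0.11, adjusted p = 0.00122) in “poor” and -0.23 (SE 0.11, adjusted p = 0.14) in “good” mice. Tyrobp, the adaptor also known as DAP12, had -0.35 (SE 0.09, adjusted p = 0.00648) over all R6/1 mice, and its partner Trem2, a receptor for lipids, had -0.26 (SE 0.10, adjusted p = 0.0588) and passed in “poor” mice alone, at -0.42 (SE 0.11, adjusted p = 0.0128).

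Laptm5, a lysosomal membrane protein of leukocytes, lay at 83.7 to 113 CPM (median 93.8) in wild-type mice, at 73.3, 81.97, 77.5 and 82.7 CPM in R6/1 “good” and at 64.02, 95.1, 58.5 and 66.9 CPM in R6/1 “poor” mice. R6/1 “poor” mouse 2 lay inside the wild-type range, well above the other 3, and the log2 fold change over all R6/1 mice was -0.38 (SE 0.09, adjusted p = 0.00434). The tetraspanin Cd53 lay at 11.7 to 18.6 CPM (median 15.4) in wild-type mice, at 10.3, 11.9, 12.9 and 13.5 CPM in R6/1 “good” and at 11.3, 12.3, 11.2 and 12.5 CPM in R6/1 “poor” mice. Its log2 fold change was -0.37 (SE 0.09, adjusted p = 0.00508), though the ranges of the genotypes overlapped, with wt “good” mouse 4 the lowest wild-type mouse.

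The inositol phosphatase Inpp5d, also known as SHIP1, fell by 0.33 on the log2 scale over all R6/1 mice (adjusted p = 0.00703), and the IgG receptor Fcgr3 by 0.37 (adjusted p = 0.0149). Fcgr3 has close relatives among the Fc gamma receptor genes, and how reads that fit several of them were counted is not given in the sources used here. Ly86, the partner of a receptor related to Toll-like receptors, had -0.17 (SE 0.08, adjusted p = 0.0946) and Ptprc -0.22 (SE 0.09, adjusted p = 0.0685), neither of which passed over all R6/1 mice. Ly86 passed in “poor” mice at -0.29 (SE 0.08, adjusted p = 0.0151).

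Of the 3 transcription factors 2 fell over all R6/1 mice and 1 did not pass, when 17% of all tested genes fell. Irf8 lay at 7.16 to 13.2 CPM (median 9.42) in wild-type mice, at 5.88, 7.65, 7.65 and 7.89 CPM in R6/1 “good” and at 4.96, 7.92, 5.67 and 6.83 CPM in R6/1 “poor” mice, with a log2 fold change of -0.49 (SE 0.13, adjusted p = 0.00658) over all R6/1 mice, the largest fall of the 34 genes. Spi1, which encodes PU.1, lay at 3.09 to 5.34 CPM (median 4.25) in wild-type mice, at 2.55, 3.09, 3.04 and 3.55 CPM in R6/1 “good” and at 2.86, 3.43, 2.797 and 3.97 CPM in R6/1 “poor” mice, and its log2 fold change was -0.41 (SE 0.12, adjusted p = 0.0168). The ranges of the genotypes overlapped in both genes. Sall1, a repressor that keeps microglia in their resting identity, lay at 34.98 to 42.8 CPM (median 37.02) in wild-type mice, at 33.4, 36.6, 39.2 and 36.01 CPM in R6/1 “good” and at 35.9, 38.9, 34.2 and 31.7 CPM in R6/1 “poor” mice, with -0.08 (SE 0.05, adjusted p = 0.288), a difference not detectable against this spread.

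The promoters were also searched for the letters that PU.1, the product of Spi1, is known to bind. RefSeq promoters (GRCm38.p6) were found for 26 of the 34 genes, as 31 windows, and the 250 bases before each transcription start were searched on both strands for GAGGAA and for the longer GAGGAAGT, every match of which is also a match of the short motif. GAGGAA stood in 17 of 31 windows (54.8%), belonging to 16 genes, and in 23.3% of the 32851 windows of all genes. The 16 were P2ry13, Cd33, Fcrls, C1qb, C1qc, Itgam, Trem2, Fcgr3, Inpp5d, Ptprc, Laptm5, Cd53, Ctss, Cd68, Aif1 and Hpgds. Of these, Trem2, Ptprc and Ctss did not pass over all R6/1 mice. Whether the motif goes with the fall was not tested. GAGGAAGT stood in 3 windows (9.68%; C1qc, Inpp5d and Hpgds) and in 2.44% of all windows. The 60 bases before the start are printed for the 6 genes that fell and hold the motif there in a stretch that touches no exon of the GENCODE M21 annotation, written along the gene's own strand with the motif, or its reverse complement TTCCTC, in capitals.
P2ry13, chr3:59210883-59210942, minus strand: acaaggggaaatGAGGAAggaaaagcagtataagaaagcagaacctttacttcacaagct
C1qb, chr4:136886201-136886260, minus strand: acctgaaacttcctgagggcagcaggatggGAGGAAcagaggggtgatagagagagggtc
Itgam, chr7:128062580-128062639, plus strand: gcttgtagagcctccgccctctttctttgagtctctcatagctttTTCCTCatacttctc
Fcgr3, chr1:171059404-171059463, minus strand: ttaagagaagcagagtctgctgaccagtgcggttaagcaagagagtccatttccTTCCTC
Inpp5d, chr1:87620252-87620311, plus strand: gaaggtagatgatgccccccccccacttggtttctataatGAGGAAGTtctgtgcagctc
Cd53, chr3:106790150-106790209, minus strand: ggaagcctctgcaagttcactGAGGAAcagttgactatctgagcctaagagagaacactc
The motif began 48 bases before the start in P2ry13, 30 in C1qb, 39 in Cd53 and 20 in Inpp5d, where it was the longer form, and on the opposite strand 15 bases before in Itgam and 6 in Fcgr3. The Fcgr3 stretch lies before a RefSeq start inside the gene's span in GENCODE M21, 171051174 to 171064935, and not at its outer end. A match describes these letters and is neither a binding site nor a cause, and the files hold no measurement of PU.1 binding.

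Of the 6 genes for lysosome, cytoskeleton, enzymes and secreted proteins 4 fell over all R6/1 mice, when 17% of all tested genes fell. Aif1, the actin-binding protein known as Iba1 and used to stain microglia, lay at 8.17 to 10.01 CPM (median 9.19) in wild-type mice, at 7.302, 7.898, 7.07 and 6.29 CPM in R6/1 “good” and at 6.496, 6.08, 4.54 and 6.51 CPM in R6/1 “poor” mice. The genotypes did not overlap, and the log2 fold change was -0.63 (SE 0.11, adjusted p = 0.000942) in “poor” and -0.35 (SE 0.10, adjusted p = 0.0145) in “good” mice. Hpgds, the haematopoietic prostaglandin D synthase, lay at 16.3 to 21.8 CPM (median 18.7) in wild-type mice, at 12.5, 16.2, 17.3 and 16.5 CPM in R6/1 “good” and at 11.1, 15.4, 10.99 and 12.2 CPM in R6/1 “poor” mice. All “poor” mice lay below the wild-type range, and the log2 fold change over all R6/1 mice was -0.43 (SE 0.10, adjusted p = 0.00235).

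Olfml3, a secreted glycoprotein, lay at 28.4 to 40.02 CPM (median 34.8) in wild-type mice, at 25.9, 33.1, 32.5 and 34.97 CPM in R6/1 “good” and at 24.8, 27.6, 22.9 and 24.6 CPM in R6/1 “poor” mice, with -0.47 (SE 0.09, adjusted p = 0.00172) in “poor” and -0.13 (SE 0.10, adjusted p = 0.369) in “good” mice. Cd68, a protein of phagocytic lysosomes that commonly rises when macrophages are active, lay at 15.4 to 22.4 CPM (median 18.2) in wild-type mice, at 14.7, 18.98, 14.95 and 17.98 CPM in R6/1 “good” and at 9.32, 15.2, 9.93 and 11.3 CPM in R6/1 “poor” mice. It had the largest fall of the 34 genes in “poor” mice, -0.69 (SE 0.13, adjusted p = 0.00174), and -0.14 (SE 0.11, adjusted p = 0.363) in “good” mice. Its call over all R6/1 mice, -0.39 (SE 0.14, adjusted p = 0.0324), was lost without R6/1 “poor” mouse 1, 3 or 4, or without wt “good” mouse 1.

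Ctss and Lpcat2 did not pass in any comparison. Ctss, the most abundant of the genes per kb, had -0.13 (SE 0.08, adjusted p = 0.193) over all R6/1 mice, with 105, 132, 139 and 113 CPM in “good” mice, 125, 120.4, 125 and 123 CPM in “poor” mice and 115 to 170.1 CPM (median 129) in wild-type mice. Lpcat2, an acyltransferase that makes platelet-activating factor, lay at 17.1 to 22.5 CPM (median 19.1) in wild-type mice and at 18.7, 20.9, 22.8 and 19.6 CPM in R6/1 “good” mice, with 0.08 (SE 0.08, adjusted p = 0.521), the only positive value among the 34 genes in either R6/1 group, and at 15.5, 20.4, 17.6 and 16.4 CPM in “poor” mice, with -0.15 (SE 0.09, adjusted p = 0.227).

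Counted by mouse, no overlap between the 4 R6/1 “poor” mice and the 8 wild-type mice was seen in 16 of 34 genes, when 8.85% of all tested genes lay entirely lower in this way. In R6/1 “good” mice the count was 8 of 34, against 7.76% of all tested genes. In 6 genes all 8 R6/1 mice lay below all 8 wild-type mice, namely Cx3cr1, P2ry12, Gpr34, Cd33, C1qa and Aif1, and 5.03% of all tested genes lay entirely lower in the same way.

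The mean log2 CPM of the 34 genes, set to 0 at the mean of the wild-type mice, shows how single mice carried the difference. Wild-type “good” mice lay at 0.16, 0.029, 0.00035 and -0.054 and wild-type “poor” mice at 0.082, 0.062, -0.15 and -0.13. R6/1 “good” mice lay at -0.43, -0.19, -0.19 and -0.18, and R6/1 “poor” mice at -0.54, -0.26, -0.52 and -0.35. All R6/1 mice thus lay below all wild-type mice on this mean, and the R6/1 groups overlapped: “good” mouse 1 was the lowest of its group in 31 of 34 genes, and “poor” mouse 2, the only one of its group in libraries 1 to 8, was the highest in 18. The group means were -0.25 ± 0.12 (SD, n = 4) for R6/1 “good” and -0.42 ± 0.13 (SD, n = 4) for R6/1 “poor” mice.

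**Figure D3:**
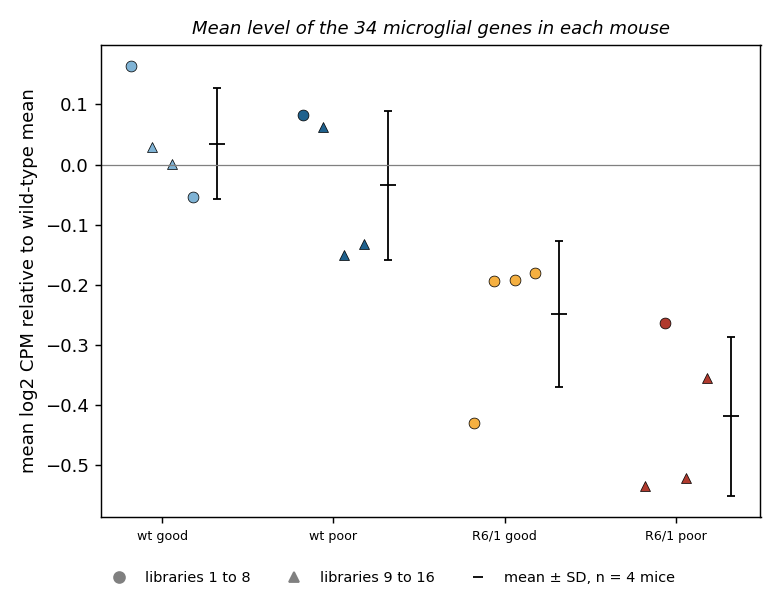
Mean log2 CPM of the 34 microglial genes in each mouse relative to the mean of the wild-type mice, by group, with mean ± SD of 4 mice beside the points; circles mark libraries 1 to 8 and triangles the later set, 9 to 16. The R6/1 mice run from -0.54 to -0.18 and the wild-type mice from -0.15 to 0.16, and “poor” mouse 2, the circle among the “poor” triangles, has -0.26, within the “good” range.

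Within a set of libraries the genotype difference stood in both. Among libraries 9 to 16, with R6/1 “poor” mice 1, 3 and 4 against 5 wild-type mice, 20 of 34 genes fell, when 10.2% of all tested genes fell and 7.35% rose, all 34 values were negative and the median log2 fold change was -0.45. Among libraries 1 to 8 the 4 R6/1 “good” mice had 13 of 34 genes lower than the 3 wild-type mice (10.1% lower and 8.47% higher among all tested genes), with a median of -0.34 and 33 negative values. R6/1 “poor” mouse 2 alone against the same 3 wild-type mice had a median of -0.33 with 31 negative values, given as a description since 1 mouse has no spread of its own. The call counts depended on single mice in both R6/1 groups. In the “good” group, leaving out R6/1 “good” mouse 1 left 6 of 34 genes lower (9.54% lower and 8.23% higher among all tested genes). The calls of Csf1r, Cd33, Gpr34, P2ry13, Laptm5, Spi1 and Hpgds were then lost. Leaving out “good” mouse 2 left 9 lower (9.55% lower and 8.42% higher). In the “poor” group, without R6/1 “poor” mouse 1 or mouse 3, 18 of 34 fell (among all tested genes 11.2% lower and 8.58% higher without mouse 1, 10.7% lower and 8.23% higher without mouse 3), and the calls of Ly86, Trem2, Laptm5, Slc2a5, Cd53, Irf8, Selplg and Tmem119 were lost.

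Calls for 5 genes in R6/1 “good” mice (C1qa, Cx3cr1, P2ry12, Selplg and Tmem119) stood whichever single mouse was left out, and in R6/1 “poor” mice those for 18 of the 26 did. In “poor” mice the call for Selplg was lost without any 1 of 9 mice, and that for Tmem119 without R6/1 “poor” mouse 1, 2 or 3. Over all R6/1 mice the call of Slc2a5 was lost without R6/1 “poor” mouse 1 or 3 or wt “good” mouse 1. In “good” mice Aif1 was lost without R6/1 “good” mouse 4, and Spi1, Hpgds and P2ry13 were lost most often, each in 8 to 10 of the 12 fits without 1 mouse.

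No microglial gene passed the test between “poor” and “good” R6/1 mice, and edgeR called 0 of all 19363 genes in this comparison (0% lower and 0% higher). The median log2 fold change of the 34 genes was -0.17, with 28 negative values between -0.53 and 0.14, beside a median of -0.00079 over all tested genes. At an unadjusted p under 0.05, 9 of 34 were lower and 0 higher, when 7.17% of all tested genes were lower and 8.32% higher. DESeq2 called 0 of the 34, though over all genes it called 129 lower and 227 higher (0.891% and 1.57%). The largest difference was that of Cd68, at -0.53 (SE 0.16, adjusted p = 0.249), then Fcrls at -0.35 (SE 0.13, adjusted p = 0.281) and Olfml3 at -0.32 (SE 0.10, adjusted p = 0.25). Siglech, at -0.27 (SE 0.08, adjusted p = 0.249), was the only gene in which the groups did not overlap, with 28.7, 33.3, 28.9 and 32.4 CPM in “good” and 22.9, 26.1, 24.4 and 27.4 CPM in “poor” mice, and 4% of all tested genes lay entirely lower in “poor” mice.

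Among the genes with positive values were Selplg at 0.14 (SE 0.10, adjusted p = 0.534), Spi1 at 0.11 (SE 0.18, adjusted p = 0.788) and Tmem119 at 0.09 (SE 0.09, adjusted p = 0.633). C1qa (0.02, SE 0.09), Itgam (0.03, SE 0.13) and Ctss (0.03, SE 0.09) were the other three. With SE of 0.08 to 0.22, differences of the size seen for most of these genes could not be separated from 0 with 4 mice a side.

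The difference between the R6/1 groups was not seen within libraries 1 to 8. There, “poor” mouse 2 against the 4 “good” mice gave a median of -0.0019, with 17 negative and 17 positive values from -0.39 to 0.30. Cx3cr1 turned from -0.26 to 0.058 and P2ry13 from -0.26 to 0.059, while Cd68 went from -0.53 to -0.12 and Fcrls from -0.35 to -0.39. These values rest on 1 “poor” mouse, which lay within the range of the “good” mice in 24 of 34 genes, above it in 6 and below it in 4. The other 3 “poor” mice all lay below all “good” mice in 12 of 34 genes, as did 10.3% of all tested genes, and no “good” mouse was in libraries 9 to 16. Performance and library set can therefore not be told apart for those 3 mice.

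**Figure D4:**
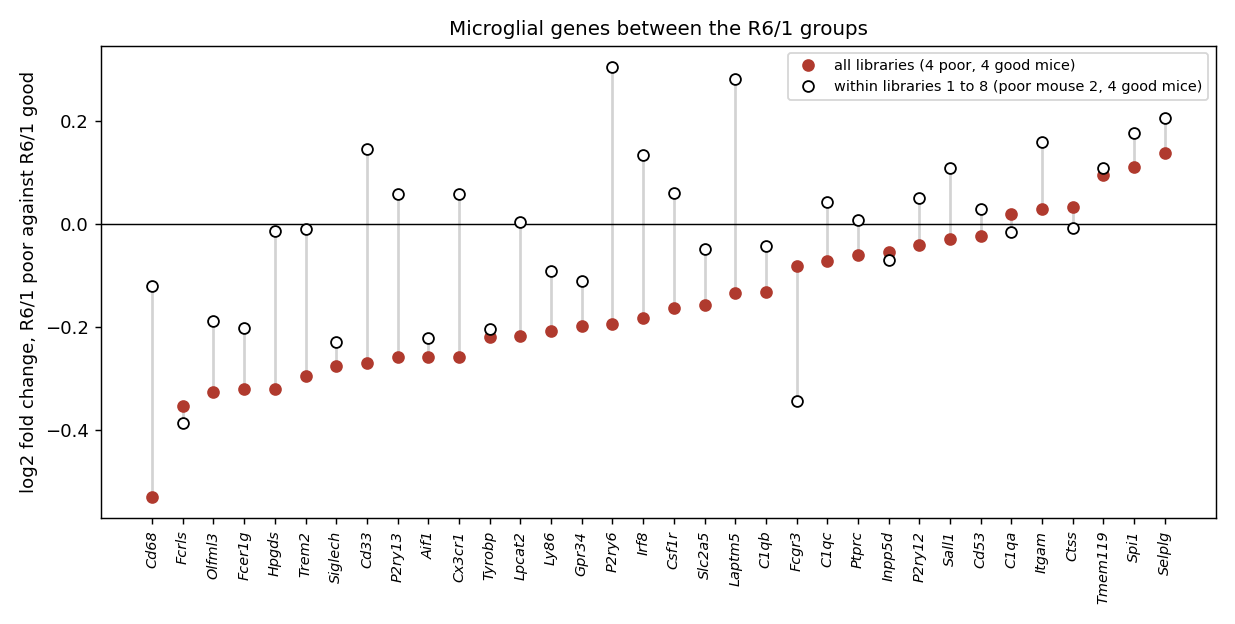
Log2 fold change of each of the 34 microglial genes between “poor” and “good” R6/1 mice over all libraries (red, 4 against 4 mice) and within libraries 1 to 8 (open circles, “poor” mouse 2 against 4 “good” mice), with a grey line joining the values of a gene. Over all libraries 28 genes lie below 0, and within libraries 1 to 8 17 do.

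Wild-type “poor” and “good” mice did not differ in any microglial gene at the threshold, and edgeR called 0 of all tested genes (0%). The median of the 34 genes was -0.083, with 23 negative values, and 1 gene, Fcrls at -0.23, had an unadjusted p under 0.05 and was lower, close to the 1.41% of all tested genes that were lower (1.03% higher). DESeq2 called 0 of the 34 and 0 of all genes. Wt “poor” mice 3 and 4 lay below the other wild-type mice on the mean of the 34 genes, and were below the wild-type mean in 32 and 29 of them. The interaction, which asks whether “poor” minus “good” differed between R6/1 and wild-type mice, passed for 0 of 34 genes and for 0% of all tested genes by edgeR. Its median over the 34 genes was -0.10 with 25 negative values, 3 genes had an unadjusted p under 0.05 (Hpgds at -0.37, Lpcat2 at -0.32 and Siglech at -0.31), when 3.36% of all tested genes were lower and 2.42% higher at that p, and DESeq2 called 0 of the 34 and 1 of all genes (0.00517% lower and 0% higher).

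The genes also varied together from mouse to mouse within groups. After the group means were taken off, the correlation of log2 CPM over 16 mice had a median of 0.458 over the 561 pairs of genes, and 92.7% of pairs were positive. Cd33 and Laptm5 had the closest pattern (r = 0.965), followed by C1qa and Tyrobp (r = 0.916). Sall1 moved least with the rest, with a median r of 0.113, and C1qc moved most with them, at 0.652. These pairs share libraries, and the values are a description with no test. No such value was computed for other genes, so the correlation is not shown to be particular to microglial genes.

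Of 30 further microglial genes outside the 34, 29 were tested. Over all R6/1 mice 16 fell and 0 rose (17% lower and 17.2% higher among all tested genes), with a median log2 fold change of -0.31. Rgs10, a regulator of G protein signalling, had -0.51 (SE 0.08, adjusted p = 6.89e-05) and Tgfbr1, the receptor for the TGF-beta on which microglial identity depends, -0.41 (SE 0.06, adjusted p = 5.59e-05). The integrin chain Itgb5 had -0.32 (SE 0.05, adjusted p = 9.95e-05) and Il10ra, the receptor for the anti-inflammatory cytokine IL-10, -0.55 (SE 0.10, adjusted p = 0.000266). Tgfbr1 and Itgb5 are not restricted to microglia. In “poor” mice 16 of the 29 fell (14.9% of all tested genes), and in “good” mice 9 (12.4% of all tested genes).

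Genes that rise in disease-associated microglia, the state described around plaques and in degeneration, did not rise as a group. Of 20 tested, 5 fell (Apoe, Lpl, Axl, Spp1 and Ctsd) and 2 rose (Timp2 and Ctsl) over all R6/1 mice, with a median of -0.15. These counts lie near the shares of all tested genes, 17% lower and 17.2% higher. The values are of whole tissue, and which cells they come from was not tested. Axl, a receptor for dying cells, had -0.39 (SE 0.04, adjusted p = 2.47e-06) and the lipid carrier Apoe, which astrocytes also make in bulk, -0.39 (SE 0.07, adjusted p = 0.000276). The metalloproteinase inhibitor Timp2 had 0.41 (SE 0.09, adjusted p = 0.00116) and the lysosomal protease Ctsd -0.22 (SE 0.05, adjusted p = 0.00149). Cst7, a marker of that state, was under the filter on low counts.

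Inflammatory mediators were scarce. Of 15 genes, 7 were under the filter (Tnf, Il1b, Il6, Ccl2, Ccl3, Ccl4 and Arg1), and the summed level of the list ran from 35.7 to 49.3 CPM in wild-type and from 29.1 to 34.7 CPM in R6/1 mice. Il18 was the only gene of the 8 tested that passed, at -0.30 (SE 0.05, adjusted p = 0.000194), when 17% of all tested genes fell. The next by p were Ptgs2 at -0.68 (SE 0.32, adjusted p = 0.115), Nos2 at -0.33 (SE 0.16, adjusted p = 0.115) and Il1a at -0.22 (SE 0.20, adjusted p = 0.433).

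Of 13 interferon-response genes 4 rose and 0 fell over all R6/1 mice (17.2% higher and 17% lower among all tested genes), with a median log2 fold change of 0.38. Among those that rose, Irf7 had 0.75 (SE 0.17, adjusted p = 0.00179), Ifit2 0.48 (SE 0.11, adjusted p = 0.00295) and Ifit1 0.71 (SE 0.24, adjusted p = 0.0278). Irf7 lay at 2.72 to 6.43 CPM (median 3.58) in wild-type mice, at 6.17, 5.94, 8.003 and 4.795 CPM in R6/1 “good” and at 8.76, 6.71, 5.72 and 5.03 CPM in R6/1 “poor” mice. Wt “poor” mouse 2 lay far above the other wild-type mice in Irf7 and Ifit1, at 6.43 and 10.9 CPM. Several cell types of the brain express these genes, and their source was not tested.

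Of 9 ligands of microglial receptors, 2 fell and 1 rose over all R6/1 mice. These counts lie near the shares of all tested genes, 17% lower and 17.2% higher. Cx3cl1, the fractalkine that binds Cx3cr1, lay at 673 to 972 CPM (median 746) in wild-type mice, at 439.6, 441, 382 and 492 CPM in R6/1 “good” and at 329, 385, 376 and 519 CPM in R6/1 “poor” mice. No R6/1 mouse reached the wild-type range, and the log2 fold change was -0.89 (SE 0.09, adjusted p = 1.26e-06). Il34, the neuronal ligand of Csf1r, had -0.31 (SE 0.11, adjusted p = 0.0451), with overlapping genotypes, and the other ligand, Csf1, -0.07 (SE 0.09, adjusted p = 0.58). Cd200, a neuronal protein that restrains microglia, lay at 49.8 to 94.7 CPM (median 74.2) in wild-type mice and at 139.6, 114, 107 and 87.9 CPM in R6/1 “good” and 182, 125, 167 and 125 CPM in R6/1 “poor” mice, with 0.79 (SE 0.16, adjusted p = 0.000921). Tgfb1 had -0.32 (SE 0.12, adjusted p = 0.0529) and did not pass.

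**Figure D5:**
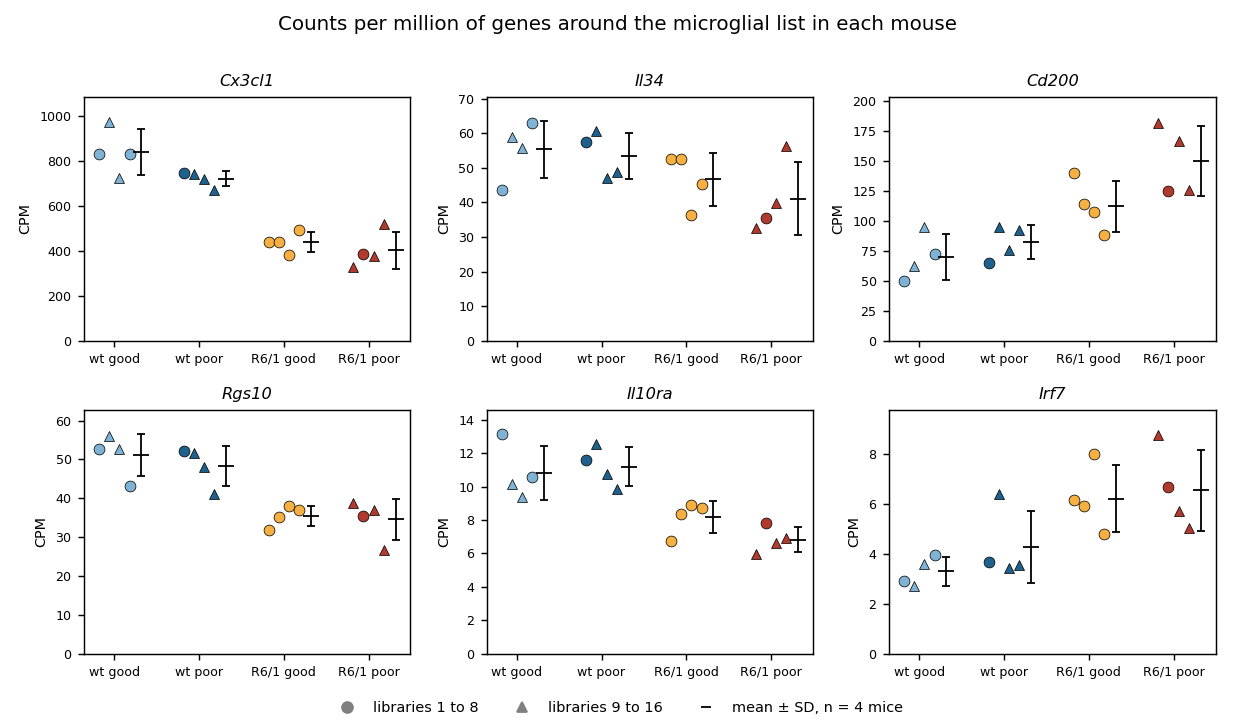
CPM of 6 genes outside the 34 in each mouse, by group: the ligands Cx3cl1, Il34 and Cd200, the further microglial genes Rgs10 and Il10ra and the interferon-response gene Irf7, with mean ± SD of 4 mice beside the points. For Cx3cl1 all R6/1 mice lie below all wild-type mice, and the mean Cd200 and Irf7 levels are higher in both R6/1 groups than in both wild-type groups.

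Markers of other cells moved with genotype too. All 10 markers of medium spiny neurons fell over all R6/1 mice, with a median of -1.68, and their summed level ran from 5617 to 8757 CPM in wild-type to 1313 to 3322 CPM in R6/1 mice. Of 10 markers each, 9 of endothelial cells (median -0.31), 6 of astrocytes (-0.34, with 1 higher), 5 of oligodendrocytes (-0.30) and 3 of pericytes and smooth muscle (-0.24) fell. The shares of all tested genes were 17% lower and 17.2% higher. In R6/1 “poor” mice 8 pericyte markers fell and in “good” mice 0, when 14.9% and 12.4% of all tested genes fell. Between the R6/1 groups 0 of these 10 markers passed. Most “poor” mice and all “good” mice also sat in different sets of libraries. The part of tissue make-up in the microglial values was not tested.

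Markers of cells related to microglia had low summed levels. Their calls are over all R6/1 mice, where 17% of all tested genes fell and 17.2% rose. Border macrophages, which share many of the 34 genes, had 2 of 8 tested markers lower, Stab1 at -0.40 (SE 0.10, adjusted p = 0.00424) and Mrc1 at -0.38 (SE 0.12, adjusted p = 0.0255), and a summed level of 33.9 to 52.02 CPM in wild-type and 27.3 to 38.4 CPM in R6/1 mice, beside 1249 to 1547 CPM and 963 to 1219 CPM for the summed 34 genes. Of 12 markers of blood leukocytes, 10 were under the filter, and the summed level was 2.05 to 3.34 CPM in wild-type and 2.01 to 3.65 CPM in R6/1 mice. Markers of ependymal cells (8), cortical neurons (8) and hypothalamic neurons (5 tested) had 0 called over all R6/1 mice. The summed cortical markers ranged from 26.1 to 768 CPM in wild-type and from 40.7 to 847 CPM in R6/1 mice.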

How the data were processed

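Striatal RNA of 16 mice was sequenced, 1 library per mouse. The authors made stranded, paired-end mRNA libraries and mapped the reads to GRCm38 with TopHat 1.0.1 (the submitters' notes also name CASAVA and Bowtie), and the deposited values are raw counts per gene, whole numbers without normalization. Which program counted the reads, with which strand option and gene annotation, is not given in the sources used here. All columns of the table were used.

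Gene symbols, positions and exon lengths came from GENCODE M21. The 34 genes, their roles and the other gene lists were chosen with earlier results of these data known, as was the division of the libraries after running number 8. Each R6/1 group was compared with the pooled wild-type mice, as in the study, in a fit of only the libraries compared, by the robust quasi-likelihood test of edgeR 4.0.16 (R 4.3.3, limma 3.58.1) with TMM factors and Benjamini-Hochberg adjustment over 19363 genes at a threshold of 0.05. CPM per mouse use TMM factors, and means of log2 CPM a prior count of 2. By rule, all 34 genes were named, and up to 4 genes per further list by p. Values per mouse were given for up to 3 genes per role with the smallest p over all R6/1 mice. The rule added genes whose sign differed from most of their role. Of these, Lpcat2 and Ctss have values per mouse, while Tmem119 and Selplg, positive between the R6/1 groups, do not. The per-mouse values of Cd68 and Siglech, and Lpl, Spp1, Ctsl, Csf1 and the named markers, were chosen after their values were seen. Figures were drawn with matplotlib 3.10.9.

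Alternatives were DESeq2 1.42.0, other scaling factors and count filters, the replicate number as a block, the running number as a covariate or within its sets, a joint fit of the 4 groups, controls restricted to wild-type mice of matching performance, and leaving out each mouse. The test was checked on simulated counts for these libraries, drawn with the same spread for every gene, so the check does not measure power in these data. Replicate numbers did not pair mice (correlations of same-numbered deviations from -0.346 to 0.233), and no libraries agreed within sampling noise. Motifs were searched in RefSeq promoters. Precision is limited by 4 mice per group. Results of some genes are not reported here.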

Additional observations from a re-analysis of the deposited data

Results flagged for a closer look

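In 136 groups of 4 mice, 1 for each gene and group, the highest or lowest mouse was asked to stand apart from the rest by Dixon's test, which flags about 1 in 20 groups by chance, and 6 did. Of these, 3 were R6/1 “good” mouse 1, the lowest of its group, with 23.8 CPM of Tmem119 (next 28.5), 56.1 CPM of C1qb (next 72.8) and 5.88 CPM of Irf8 (next 7.65). R6/1 “poor” mouse 2 had 18.15 CPM of Cd33, above the next mouse at 12.6 CPM, and is the only mouse of its group in libraries 1 to 8. Among wild-type mice, wt “good” mouse 1 had 242 CPM of Csf1r, above the next at 209 CPM, and wt “good” mouse 4 had 3.71 CPM of Spi1, below the next at 4.55 CPM.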

How the results depend on the processing

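No microglial gene was called higher in any of the fits, and between the performance groups of either genotype and for the interaction 0 were called in every one. In R6/1 “poor” mice 26 genes fell, with 18 to 27 when single mice were left out and 20 within libraries 9 to 16. DESeq2 called 27 lower in “poor” mice, when 16.1% of all tested genes were lower and 15% higher. Within libraries 1 to 8, 1 “poor” mouse met 3 wild-type mice and the spread came from the wild-type mice alone. The median log2 fold change there was -0.33. In R6/1 “good” mice 13 fell, with 6 to 16 when single mice were left out (6 without “good” mouse 1) and 19 by DESeq2. Over all genes DESeq2 called 2729 lower (14.1%) and 2405 higher in “good” mice. Over all R6/1 mice 27 fell, with 24 to 30 when single mice were left out. Scaling by library totals alone moved the median of all genes to 0.10 in “good” mice and 0.11 over all R6/1 mice. It left 7 genes lower in “good” mice (9.29% lower and 22.8% higher among all tested genes), where the members' median was then -0.19. In “poor” mice it left 21 lower (11.3% lower and 23.4% higher), and over all R6/1 mice 23 (12.3% lower and 28.8% higher). The cause of the count's fall was not tested beyond this shift. Between the R6/1 groups, within libraries 1 to 8, 19 of 34 genes kept their sign and 17 were positive. Of the 9 with an unadjusted p under 0.05, Cx3cr1 and P2ry13 turned positive (0.0581 and 0.0587 log2). The running number as a covariate leaves the same contrast of “poor” mouse 2 with the “good” mice, and so the same values. Same-numbered mice did not deviate together, and with the replicate block 25 genes fell in “poor” mice, 12 in “good” mice and 26 over all R6/1 mice. Of all 19363 genes, 2764, 2356 and 3162 fell and 2369, 2286 and 3156 rose in those fits. Between the R6/1 groups, with 4 mice a side, a difference of the size of the median (-0.17) could not be separated from 0. Even the largest there, Cd68 at -0.53, did not pass (edgeR, adjusted p = 0.249).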
